A study of Homo sapiens with 18 samples.

Results

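A set of 8 genes of the cholesterol pathway was followed by RNA-seq in SH-SY5Y, an established human neuroblastoma line. The genes were HMGCS1, IDI1, FDFT1, SQLE, LSS, DHCR7, INSIG1 and SREBF2, and the rows with these symbols were taken from the deposited table, 8 of 26372 gene symbols. All 8 had a mean of at least 1 FPKM (the fragments of a gene divided by its length and by the library's mapped total) and were among the 13785 genes tested. Of these, 6 encode enzymes of cholesterol synthesis and the other two encode regulators of the pathway. None of the 8 encodes a receptor for cholesterol uptake, so uptake was read from a separate list.

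The cells carried a lentiviral ZNHIT3 construct made from the FUGW plasmid. ZNHIT3 is a zinc-finger protein that takes part in the assembly of small nucleolar ribonucleoproteins. The construct held the wild-type sequence (WT), the C14R substitution or a deletion, and libraries were made at day 0 and day 18 of differentiation, giving 6 groups of 3 libraries. The deletion groups carry the word Depleted in their titles and a position range of 251-254, 251-255 or 251-256 in replicates 1, 2 and 3. Whether these positions count residues or bases is not settled here. The groups are called the deletion here. All groups share the cell line and a delivered ZNHIT3 construct, a group without a construct was not analysed here, and transcripts of the construct and of the cells' own ZNHIT3 were not separated. Cells were kept in medium with 15% fetal bovine serum. After infection, 48 hours passed before the change to a serum-free neurobasal medium with B27, retinoic acid (10 µM), dibutyryl cyclic AMP (2 mM), BDNF (50 ng/ml) and KCl (20 mM) for 18 days. The medium of the day 0 libraries is not given in the sources used here. Time, serum, supplement and added agents therefore cannot be told apart in any comparison of day 18 with day 0. Whether the 3 libraries of a group came from separate cultures is not stated, so the p-values measure the spread between these libraries, which may be technical.

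Cholesterol is built from acetyl-CoA through the mevalonate pathway, which yields isoprene units, then squalene, then lanosterol and, after a series of ring and side-chain steps, cholesterol. Transcription of most of these genes is driven by SREBP-2, the product of SREBF2, a membrane-bound factor that SCAP carries from the endoplasmic reticulum to the Golgi for cleavage when sterols are low. INSIG1 holds SCAP and SREBP-2 in the endoplasmic reticulum when sterols are plentiful and is itself a target of SREBP-2. Neurons make part of their own cholesterol, which membranes, axons and synapses require, and also take it up in lipoproteins.

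Promoter sequences are shown for both regulators and for the enzymes of the HMG-CoA and the isoprene isomerase step, because SREBP-2 acts through short elements close to the start site. The windows of DHCR7 and LSS were also searched and are not printed. RefSeq (GRCh38.p14) start-site windows were matched by symbol for 6 of the 8 genes; FDFT1 and SQLE had none. The 250 bases before the start site are printed 5′ to 3′ along the gene. Capitals mark matches to CACNCCAC, a sterol regulatory element core, and to CCAAT, the NF-Y box, on either strand.
SREBF2 (chr22:41832855-41833104, plus strand): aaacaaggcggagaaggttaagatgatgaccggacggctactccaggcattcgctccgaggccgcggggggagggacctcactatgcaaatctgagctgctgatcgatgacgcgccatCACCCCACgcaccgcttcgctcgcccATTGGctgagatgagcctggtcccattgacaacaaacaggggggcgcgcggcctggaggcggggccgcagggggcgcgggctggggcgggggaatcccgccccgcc
INSIG1 (chr7:155297628-155297877, plus strand): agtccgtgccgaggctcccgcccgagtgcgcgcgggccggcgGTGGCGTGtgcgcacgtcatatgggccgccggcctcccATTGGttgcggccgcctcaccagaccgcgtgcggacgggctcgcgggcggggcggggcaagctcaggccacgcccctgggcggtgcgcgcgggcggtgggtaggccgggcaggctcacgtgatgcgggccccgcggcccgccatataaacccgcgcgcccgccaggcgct
IDI1 (chr10:1048887-1049136, minus strand): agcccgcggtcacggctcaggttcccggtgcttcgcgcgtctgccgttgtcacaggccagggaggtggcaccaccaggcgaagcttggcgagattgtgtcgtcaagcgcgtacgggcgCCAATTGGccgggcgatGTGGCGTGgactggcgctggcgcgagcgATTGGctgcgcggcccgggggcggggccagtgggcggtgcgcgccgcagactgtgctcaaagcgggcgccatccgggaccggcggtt
HMGCS1 (chr5:43313413-43313662, minus strand): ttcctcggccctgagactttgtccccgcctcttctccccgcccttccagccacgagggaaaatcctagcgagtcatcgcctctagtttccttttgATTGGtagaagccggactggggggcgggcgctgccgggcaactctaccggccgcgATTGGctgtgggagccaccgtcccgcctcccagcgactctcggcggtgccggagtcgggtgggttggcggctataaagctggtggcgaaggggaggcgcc
The core match lay at −132 to −125 from the start site in SREBF2, at −208 to −201 in INSIG1 and at −115 to −108 in IDI1. It read on the gene's own strand in SREBF2 and on the opposite strand in INSIG1 and IDI1. In HMGCS1 the capitals are CCAAT matches on the opposite strand at −155 to −151 and −100 to −96. Searched over whole windows, from 250 bases before to 50 after the start, CACNCCAC was present for 3 of 6 genes (IDI1, INSIG1 and SREBF2), against 7.91% of the 10152 tested genes with a window and 5.87% of all 35116 windows. Among 13 other cholesterol synthesis genes with a window it was present for 1, SC5D. CCAAT was present for 6 of 6 genes, against 43.5% of tested genes, and GGGCGG, the GC box, for 6 of 6, against 76.5%. Genes with several windows, such as IDI1 with 3 and HMGCS1 with 2, had more sequence in which to match. These matches describe letters in a window and carry no measurement of binding.

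The libraries separated by day. The first principal component held 86.9% of the variance and divided day 0 from day 18, and the second held 2.5%. One library, C14R replicate 1 of day 18, stood apart on the second component at 24.8, while the others lay between −8.3 and 9.3. Across genes, which are not independent replicates, its deviation from the day mean correlated with transcript GC content at r = −0.59, against −0.35 to 0.35 in the other day 18 libraries. Absolute depth cannot be read from FPKM. The steps of low FPKM values put the day 0 libraries at 59.0% to 84.5% and the day 18 libraries at 82.0% to 100% of the deepest library. ZNHIT3 lay between 531 and 542 FPKM in WT, 419 and 432 in C14R and 292 and 310 in the deletion at day 0. At day 18 it lay between 1103 and 1193, 600 and 756, and 294 and 313 FPKM. Of 10 markers of sympathetic neuroblasts, 9 were expressed at a mean of at least 1 FPKM (HAND2 274 to 281 FPKM in WT at day 0), and TH was the exception at 0 to 0.0804 FPKM there.

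All 8 cholesterol genes rose from day 0 to day 18 with each of the 3 constructs. HMGCS1 rose most, with a ratio of mean FPKM of 5.12 in WT, 5.05 in C14R and 5.38 in the deletion. INSIG1 followed at 3.94, 3.49 and 3.77, and LSS rose least in WT and C14R, at 2.07 and 1.96. In the deletion FDFT1 rose least, at 2.14, and LSS stood at 2.35. For every one of the 8 genes the lowest of the 9 day 18 libraries lay above the highest of the 9 day 0 libraries. In limma's moderated test with Benjamini-Hochberg adjustment over all tested genes, 8 of 8 were higher at day 18, against 38.2% of tested genes in WT, 37.9% in C14R and 38.6% in the deletion. None of the 8 was lower, against 34%, 35% and 34.4% of tested genes. In all 3 constructs at once, 8 of 8 were higher, against 33.3% of tested genes. A log2 change of at least 1 on the log2(FPKM + 1) scale, on which all log2 values here are given, was reached by 7 of 8 in WT and 7 of 8 in C14R, each against 7.27% of tested genes, and by 8 of 8 in the deletion, against 7.66%. The median log2 change of the 8 genes was 1.37 in WT, 1.34 in C14R and 1.45 in the deletion, while the medians of all tested genes were 0.03, 0.02 and 0.03.

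**Figure D1:**
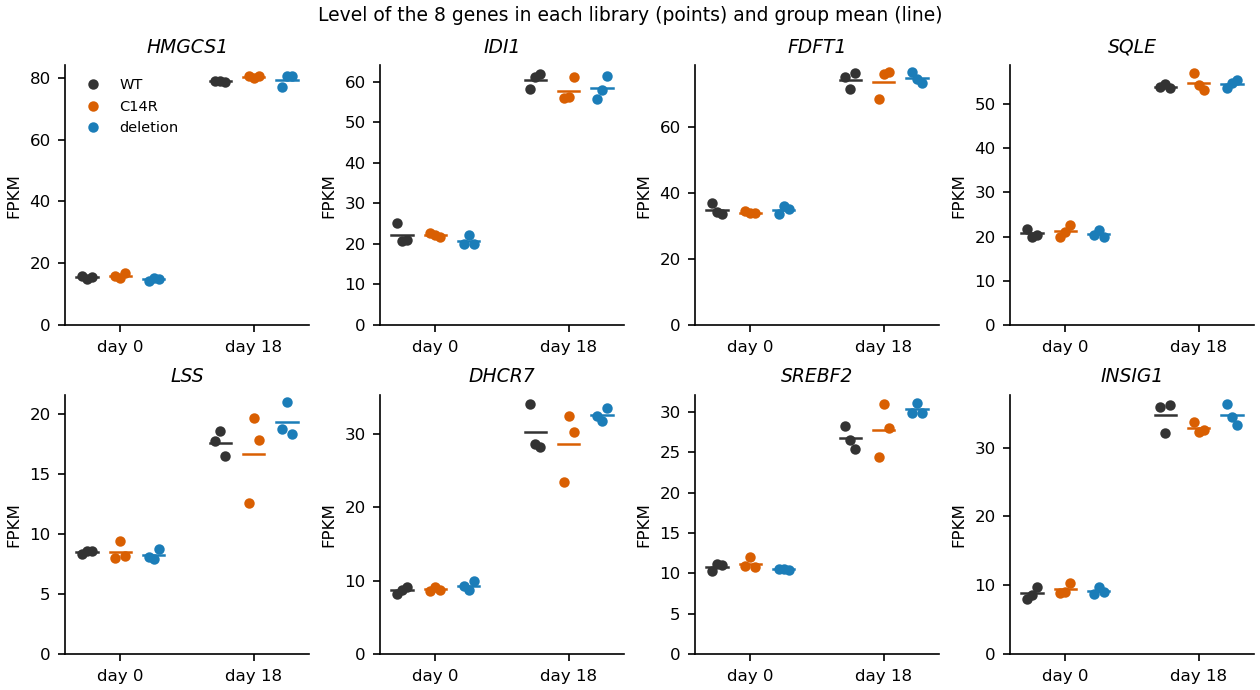
FPKM of the 8 cholesterol genes in each of the 18 libraries, on a linear axis from 0, with 1 panel per gene, points for libraries and lines for group means, at day 0 and day 18 in WT, C14R and deletion cells. In every panel the day 18 points lie above the day 0 points, and at day 0 the libraries of each variant overlap those of WT.

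Other genes moved with day as well, and RNA of whole cultures was measured, so fewer cells of a type and less RNA per cell cannot be told apart. The summed FPKM of 10 neuronal markers was 1070 to 1120 in day 0 libraries and 2300 to 2530 in day 18 libraries. In WT 10 of 10 rose, against 38.2% of all tested genes. Of the proliferation genes, 10 of 10 fell in WT, against 34% of all tested genes. Their sum was 449 to 483 FPKM over all day 0 libraries and 151 to 198 over all day 18 libraries. Of 8 mesenchymal markers, 6 were tested and all 6 fell in WT, beside the same 34% of all tested genes. The sums over the 8 were 415 to 442 FPKM over all day 0 libraries and 111 to 133 over all day 18 libraries. Schwann and glial markers stayed low, at 3.99 to 5.56 and 9.42 to 11.5 FPKM summed over 8 genes, of which 2 had a mean of at least 1. Of 6 blood markers 1 did (sums of 5.69 to 7.34 and 2.02 to 2.86 FPKM), and HBB was listed at 0 throughout. Of 5 hepatocyte markers none did, with sums of 0 to 0.493 FPKM. The part of these differences in the rise of the cholesterol genes was not tested.

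HMGCS1 encodes the cytosolic synthase that makes HMG-CoA, an early intermediate of the mevalonate pathway. Its gene lies at chr5:43289395-43313512 on the minus strand (GRCh38, GENCODE 29). In WT it read 15.8, 14.9 and 15.6 FPKM at day 0 and 78.9, 79.1 and 78.8 FPKM at day 18. In C14R it read 15.7, 15.2 and 16.9 FPKM and then 80.5, 79.9 and 80.7. In the deletion it read 14.3, 15.2 and 14.9 FPKM and then 77.1, 80.8 and 80.5. All 9 libraries of a day lay close together, and no other gene of the 8 had day 18 values in so narrow a relative range. The log2 change in WT was 2.28 (SE 0.04, limma adjusted p = 1.2e-17), which ranked 135 among the 13785 tested genes. It was 2.27 in C14R and 2.35 in the deletion.

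IDI1 encodes isopentenyl-diphosphate isomerase, which interconverts both isoprene building blocks, and lies at chr10:1039152-1049170 on the minus strand. It read 25.1, 20.7 and 21.0 FPKM in WT at day 0 and 58.2, 61.1 and 62 FPKM at day 18. In C14R the values were 22.7, 22.1 and 21.8 FPKM and then 56.1, 56.2 and 61.2, and in the deletion 20.0, 22.3 and 19.9 and then 55.8, 58.1 and 61.4. The highest day 0 value was WT replicate 1, and the groups of the 3 constructs overlapped on both days. The log2 change was 1.40 in WT (SE 0.06, limma adjusted p = 2.6e-12), 1.34 in C14R and 1.45 in the deletion. An antisense gene, IDI2-AS1, overlaps IDI1 over 5050 bases. It read 0.374 to 1.26 FPKM in day 0 libraries and 1.07 to 3.38 FPKM in day 18 libraries, ranges that overlap and lie far below IDI1 on the same scale per length.

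FDFT1, at chr8:11795573-11839309 on the plus strand, encodes squalene synthase, the first enzyme committed to sterols. It read 37.0, 34.1 and 33.7 FPKM in WT at day 0 and 75.2, 71.4 and 76.4 FPKM at day 18. C14R gave 34.4, 33.9 and 33.8 FPKM and then 68.5, 75.9 and 76.5, and the deletion 33.7, 36.1 and 35.0 and then 76.5, 74.4 and 73.2. It was the most abundant of the 8 at day 0 and had one of the smaller rises, with a log2 change of 1.07 in WT (SE 0.05, limma adjusted p = 1.4e-12), 1.09 in C14R and 1.07 in the deletion.

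SQLE, at chr8:124998497-125022283 on the plus strand, encodes squalene epoxidase, an oxygen-requiring and rate-limiting step of the sterol branch. WT read 21.7, 19.9 and 20.4 FPKM at day 0 and 53.8, 54.6 and 53.5 FPKM at day 18. C14R read 19.9, 21.1 and 22.6 FPKM and then 56.9, 54.2 and 53.2, and the deletion 20.4, 21.4 and 19.9 and then 53.7, 54.7 and 55.3. The constructs overlapped on both days, and the log2 change was 1.34 in WT (SE 0.05, limma adjusted p = 5.8e-14), 1.33 in C14R and 1.37 in the deletion.

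LSS, at chr21:46188141-46228824 on the minus strand, encodes lanosterol synthase, which closes the rings of the sterol skeleton. It was the least abundant of the 8 on both days by its median. WT read 8.34, 8.63 and 8.63 FPKM at day 0 and 17.8, 18.6 and 16.5 FPKM at day 18. C14R read 8.06, 9.40 and 8.21 FPKM and then 12.6, 19.7 and 17.9, and the deletion 8.07, 7.90 and 8.78 and then 18.8, 21.0 and 18.4. C14R replicate 1 was the lowest day 18 library. The log2 change was 0.97 in WT (SE 0.11, limma adjusted p = 4.4e-07), 0.87 in C14R (limma adjusted p = 1.5e-06) and 1.14 in the deletion (limma adjusted p = 5.1e-08), the smallest and least precise of the 8 in WT.

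DHCR7, at chr11:71428193-71452868 on the minus strand, encodes 7-dehydrocholesterol reductase, a final step to cholesterol and the enzyme deficient in Smith-Lemli-Opitz syndrome. WT read 8.20, 8.78 and 9.19 FPKM at day 0 and 34.1, 28.6 and 28.3 FPKM at day 18. C14R read 8.56, 9.20 and 8.77 FPKM and then 23.5, 32.4 and 30.3, and the deletion 9.23, 8.69 and 10.0 and then 32.5, 31.8 and 33.6. The day 18 spread was wider than at day 0, with WT replicate 1 the highest and C14R replicate 1 the lowest library. The log2 change was 1.68 in WT (SE 0.09, limma adjusted p = 3e-11), 1.58 in C14R and 1.71 in the deletion.

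SREBF2, at chr22:41833079-41907308 on the plus strand, encodes SREBP-2, the transcriptional activator of the pathway. WT read 10.3, 11.1 and 11.0 FPKM at day 0 and 28.2, 26.5 and 25.4 FPKM at day 18. C14R read 10.9, 12.0 and 10.8 FPKM and then 24.4, 31.0 and 28.0, and the deletion 10.6, 10.5 and 10.4 and then 29.9, 31.1 and 29.8. The log2 change was 1.23 in WT (SE 0.07, limma adjusted p = 2.8e-11), 1.23 in C14R and 1.45 in the deletion. MIR33A, the microRNA gene within an SREBF2 intron, was listed at 0 in all 18 libraries. It overlaps SREBF2 over 69 bases, and whether these libraries capture so short an RNA was not tested. Absence of the microRNA can therefore not be read from this value.

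INSIG1, at chr7:155297776-155310235 on the plus strand, encodes the membrane protein that retains SCAP, and had the next largest rise after HMGCS1 in each construct. WT read 8.08, 8.59 and 9.78 FPKM at day 0 and 35.9, 32.1 and 36.2 FPKM at day 18. C14R read 8.82, 9.02 and 10.3 FPKM and then 33.7, 32.2 and 32.5, and the deletion 8.78, 9.74 and 9.08 and then 36.3, 34.4 and 33.3. The log2 change was 1.87 in WT (SE 0.07, limma adjusted p = 1.6e-13), 1.70 in C14R and 1.81 in the deletion. Transcripts of the pathway's inhibitor and of its activator were thus both higher at day 18. In the annotation used, genes on the opposite strand overlap HMGCS1, IDI1, SREBF2, DHCR7, FDFT1 or LSS over 801 to 5096 bases, and how the authors' counting used strand is unknown, so reads of such partners cannot be told apart from the gene's own.

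**Figure D2:**
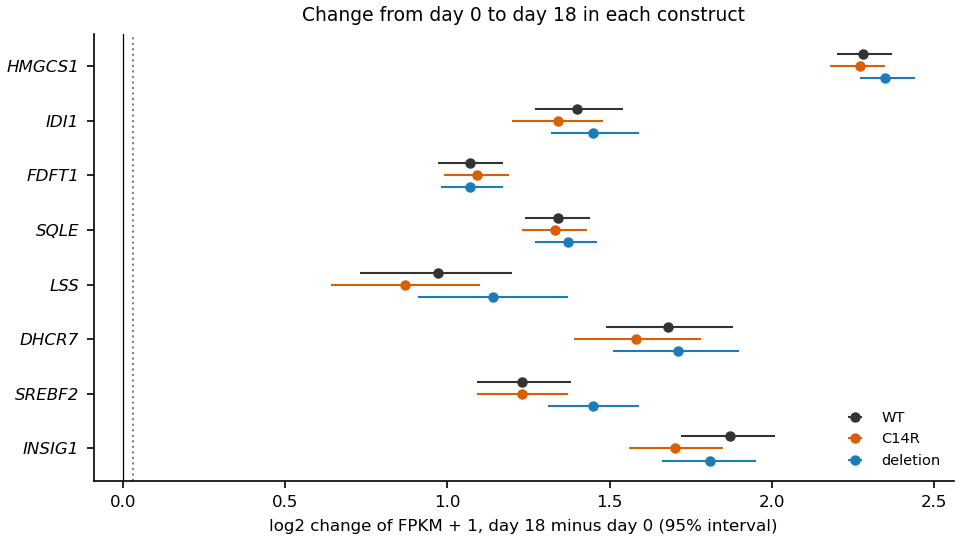
Log2 change from day 0 to day 18 of each cholesterol gene in WT (black), C14R (orange) and deletion (blue) cells, on the log2(FPKM + 1) scale, with 95% intervals from limma and a dotted line at the median of all tested genes in WT (0.03). HMGCS1 is the highest at 2.27 to 2.35 and LSS the lowest in WT and C14R, and the intervals of the constructs overlap for every gene.

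The order of abundance, read from FPKM because they are per length, changed with day. GC content, which runs from 40.2% (HMGCS1) to 58.3% (LSS and DHCR7), was not taken into account in this order. Over the 9 day 0 libraries the median order was FDFT1 (33.7 to 37.0 FPKM), IDI1 (19.9 to 25.1), SQLE (19.9 to 22.6), HMGCS1 (14.3 to 16.9), SREBF2 (10.3 to 12.0), INSIG1 (8.08 to 10.3), DHCR7 (8.20 to 10.0) and LSS (7.90 to 9.40). Neighbours from IDI1 to SQLE and from SREBF2 down to LSS overlapped in range. FDFT1 stood above IDI1, SQLE above HMGCS1 and HMGCS1 above SREBF2 without overlap. SREBF2 also read above INSIG1 within each of the 9 libraries, although their ranges overlapped. At day 18 the order was HMGCS1 (77.1 to 80.8 FPKM), FDFT1 (68.5 to 76.5), IDI1 (55.8 to 62), SQLE (53.2 to 56.9), INSIG1 (32.1 to 36.3), DHCR7 (23.5 to 34.1), SREBF2 (24.4 to 31.1) and LSS (12.6 to 21.0). HMGCS1 went from rank 4 to rank 1, with no overlap with FDFT1. IDI1 and SQLE, INSIG1 and DHCR7, and DHCR7 and SREBF2 overlapped.

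Expression of the 8 genes did not pass the test in any comparison between constructs. At day 0, 0 of 8 were called between C14R and WT, against 0% of tested genes, and 0 of 8 between the deletion and WT, against 0.029%. At day 18 the counts were 0 of 8 for C14R against WT (0.0363% of tested genes) and 0 of 8 for the deletion against WT (0.0725%). Between C14R and the deletion they were 0 of 8 at day 0 (0.058%) and 0 of 8 at day 18 (0.029%). The interaction with day, which tests whether the rise differed from that in WT, called 0 of 8 for C14R (0% of tested genes) and 0 of 8 for the deletion (0.0145%). At an unadjusted p under 0.05, limma's test picked 0 of 8 in C14R against WT at day 0 (2.81% of tested genes) and at day 18 (11.1%), in the deletion against WT at day 0 (6.22%), in C14R against the deletion at day 18 (11.2%) and in the C14R interaction (5.73%). It picked 1 of 8 in each of the deletion against WT at day 18 (SREBF2; 11.4% of tested genes), C14R against the deletion at day 0 (HMGCS1; 9.84%) and the deletion interaction (SREBF2; 7.36%).

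SREBF2 was the nearest to a call against WT. In the deletion at day 18 its 3 libraries (29.8 to 31.1 FPKM) lay above the 3 WT libraries (25.4 to 28.2 FPKM). The log2 difference was 0.18 (SE 0.07, 95% interval 0.03 to 0.32), with a limma adjusted p of 0.34 over all tested genes. Across the alternatives tried the difference ranged from 0.13 to 0.22 and the limma adjusted p from 0.084 to 0.68. The rise of SREBF2 from day 0 to day 18 was 0.22 larger in the deletion than in WT as a log2 difference (limma adjusted p = 0.63). HMGCS1 at day 0 was 0.10 higher in C14R than in the deletion on the log2 scale (limma adjusted p = 0.44). At day 18 HMGCS1 was the only other gene of the 8 whose libraries of a variant and WT did not overlap, at 79.9 to 80.7 FPKM in C14R and 78.8 to 79.1 in WT, a log2 difference of 0.03 (95% interval −0.06 to 0.11). Such separation in either direction was seen for 1 of 8 genes in C14R against WT at day 18, against 11.1% of tested genes, and for 1 of 8 in the deletion against WT at day 18, against 18.9%. At day 0 it was seen for 0 of 8 in either comparison, against 9.47% for C14R and 18% for the deletion.

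The intervals give the size of difference that the libraries could still hold. They are 95% intervals for single genes, not adjusted for the number of genes, on the FPKM + 1 scale. At day 18 HMGCS1 in the deletion differed from WT by between −5.1% and 6.8%, and SQLE by between −5.5% and 8.2%. For LSS the same interval was −6.8% to 28.6%, and for DHCR7 −6.0% to 23.4%. In C14R the intervals against WT were −4.1% to 8.0% for HMGCS1, −14.5% to 4.9% for INSIG1 and −20.1% to 10.2% for LSS. HMGCS1, SQLE and FDFT1 were thus measured more narrowly than LSS, DHCR7 and SREBF2.

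**Figure D3:**
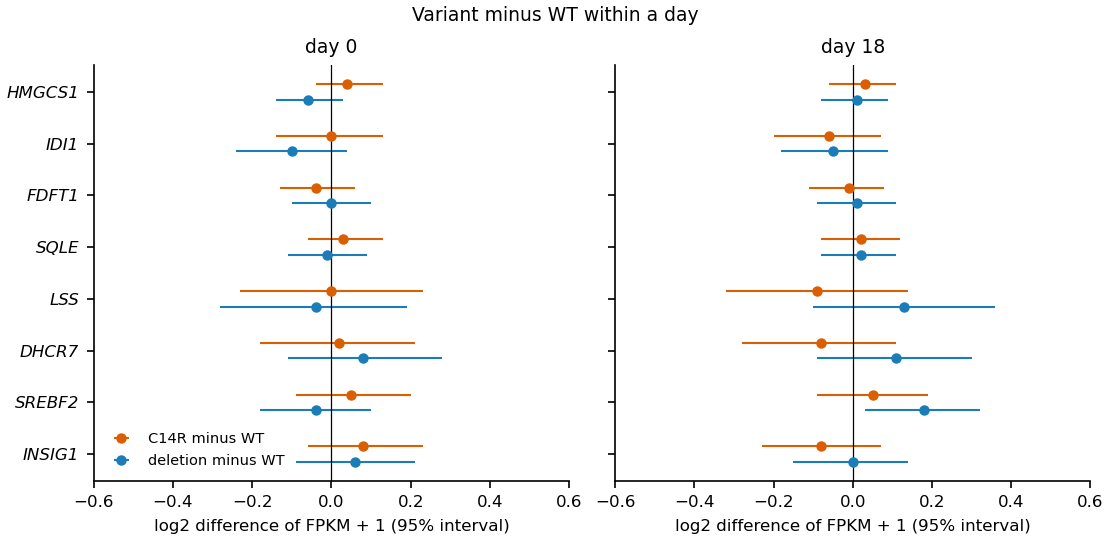
Log2 differences of C14R and of the deletion from WT for each cholesterol gene at day 0 and day 18, with 95% limma intervals. All intervals include 0 except that of SREBF2 in the deletion at day 18 (0.03 to 0.32), and those of LSS and DHCR7 are the widest.

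The library that stood apart, C14R replicate 1 of day 18, touched some of these genes. Against the other 8 day 18 libraries it was the lowest for LSS (12.6 against 16.5 to 21.0 FPKM), DHCR7 (23.5 against 28.3 to 34.1), SREBF2 (24.4 against 25.4 to 31.1) and FDFT1 (68.5 against 71.4 to 76.5). It was the highest for SQLE (56.9 against 53.2 to 55.3 FPKM) and within the range of the others for HMGCS1, IDI1 and INSIG1. The GC content of the longest transcript was 58.3% for LSS, 58.3% for DHCR7, 57.1% for SREBF2 and 48.6% for FDFT1, and 46.5% for SQLE, 46.0% for INSIG1, 41.1% for IDI1 and 40.2% for HMGCS1. The 4 genes that were lowest in this library are thus the 4 of highest GC content among the 8. The part of GC content in these values was not tested.

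Without this library all 8 genes were still called higher at day 18 in C14R, and 0 of 8 were called in any comparison between constructs. The log2 rise in C14R was then 1.05 for LSS (0.87 with it), 1.72 for DHCR7 (1.58), 1.32 for SREBF2 (1.23) and 1.14 for FDFT1 (1.09). The difference of C14R from WT at day 18 changed sign for LSS, from −0.09 to 0.09, and for DHCR7, from −0.08 to 0.05, and neither was a call. For C14R against the deletion at day 18 the log2 difference went from −0.22 to −0.04 for LSS, from −0.19 to −0.06 for DHCR7 and from −0.13 to −0.04 for SREBF2. The estimated SREBF2 difference between the deletion and WT at day 18 does not use this library. Its test does, because all 18 libraries share 1 estimate of the spread. The limma adjusted p of this difference was 0.34 with the library and 0.12 without it.

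**Figure D4:**
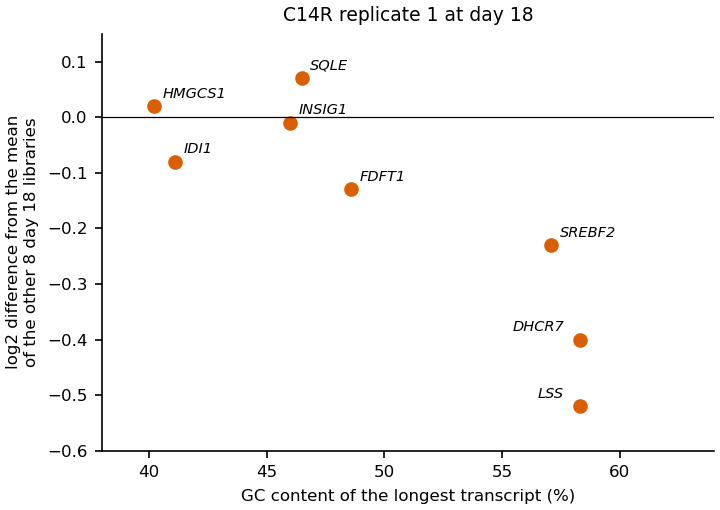
Log2 difference of C14R replicate 1 from the mean of the other 8 day 18 libraries for each cholesterol gene, plotted against the GC content (%) of its longest transcript. LSS (−0.52) and DHCR7 (−0.40), both at 58.3% GC, are the lowest, and HMGCS1 at 40.2% GC lies at 0.02.

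The other genes of cholesterol synthesis moved in the same direction as the 8 in most cases. Of 16 tested, 13 rose and 2 fell in WT, 12 rose and 1 fell in C14R, and 14 rose and 1 fell in the deletion, with median log2 changes of 0.88, 0.80 and 0.87. Over all tested genes, 38.2%, 37.9% and 38.6% rose and 34%, 35% and 34.4% fell. The largest rises in WT were those of MVD, which makes isopentenyl diphosphate (log2 change 1.94), MSMO1, a sterol C4-methyl oxidase (1.89), and CYP51A1, lanosterol demethylase (1.60). The exceptions in WT were LBR and PMVK, which fell and are named here after their values were seen, and EBP, which did not pass the test (0.14, limma adjusted p = 0.069). LBR, a nuclear envelope protein with sterol C14-reductase activity, went from 28.1, 28.7 and 28.6 FPKM to 13.8, 13.2 and 13.4 FPKM (log2 change −1.03, limma adjusted p = 1.9e-11). TM7SF2, the other C14-reductase, went the opposite way, from 17, 17.4 and 17.6 FPKM to 53.9, 49.2 and 48.9 FPKM (log2 change 1.49). PMVK, phosphomevalonate kinase, changed by −0.27 (limma adjusted p = 0.033), a call lost without the expression filter, without the small RNA genes (rescaled) and without WT replicate 2 or 3 of day 0 or replicate 3 of day 18.

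Branches that leave the mevalonate pathway before squalene had called genes in both directions. Of 11 isoprenoid genes, which make dolichol, ubiquinone side chains and protein prenyl groups, 4 rose and 5 fell in WT (5 and 4 with small RNA genes left out and libraries rescaled). GGPS1, geranylgeranyl diphosphate synthase, rose by 0.53 on the log2 scale, while PDSS1 and COQ2 of ubiquinone synthesis changed by −1.13 and −0.71. The counts were 4 and 5 in C14R and 3 and 5 in the deletion. The share that rose in WT is near that of all tested genes (38.2% rose and 34% fell).

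A further list held genes of SREBP control and of wider sterol control. Of its 10 tested genes, 7 rose and 2 fell in WT, 6 rose and 3 fell in C14R, and 7 rose and 2 fell in the deletion. Over all tested genes, 38.2%, 37.9% and 38.6% rose and 34%, 35% and 34.4% fell. SREBF1, the paralogue more tied to fatty acid synthesis, read 3.20, 3.23 and 3.93 FPKM in WT at day 0 and 10.6, 11.8 and 10.2 FPKM at day 18 (log2 change 1.41). MBTPS2, the protease of the final cleavage, rose by 0.80 on the log2 scale and INSIG2 by 0.62. MYLIP, a ubiquitin ligase listed for the wider sterol control, changed by −1.06.

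Uptake genes had calls in both directions. Of 14 tested genes of lipoprotein uptake and lysosomal release, 8 rose and 3 fell in WT and in C14R, and 7 rose and 4 fell in the deletion, beside the same shares of all tested genes (38.2%, 37.9% and 38.6% higher, 34%, 35% and 34.4% lower). STARD4, a sterol carrier, went from 24.0, 26.6 and 26.0 FPKM to 103, 99.2 and 105 FPKM in WT (log2 change 1.96). LRP1 and SCARB1, receptors for other lipoproteins, changed by −0.77 and −0.71.

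Of 7 tested genes of efflux, storage and oxidation, 5 rose and 2 fell in WT (38.2% and 34% of all tested genes), among them APOE (log2 change 1.59), ABCG4 (1.00) and ABCG1 (0.86), and CYP7B1, an oxysterol hydroxylase, at −0.87. Fatty acid synthesis, the arm that SREBP-1 drives, rose throughout, with 12 of 12 tested genes higher in each construct (38.2%, 37.9% and 38.6% of all tested genes) and medians of 0.71, 0.71 and 0.72. SCD, stearoyl-CoA desaturase, went from 67.7, 69.0 and 74.3 FPKM to 278, 271 and 282 FPKM in WT (log2 change 1.96). None of the genes of these 6 lists was called by limma in any comparison between constructs, where 0% to 0.0725% of all tested genes were called.

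**Figure D5:**
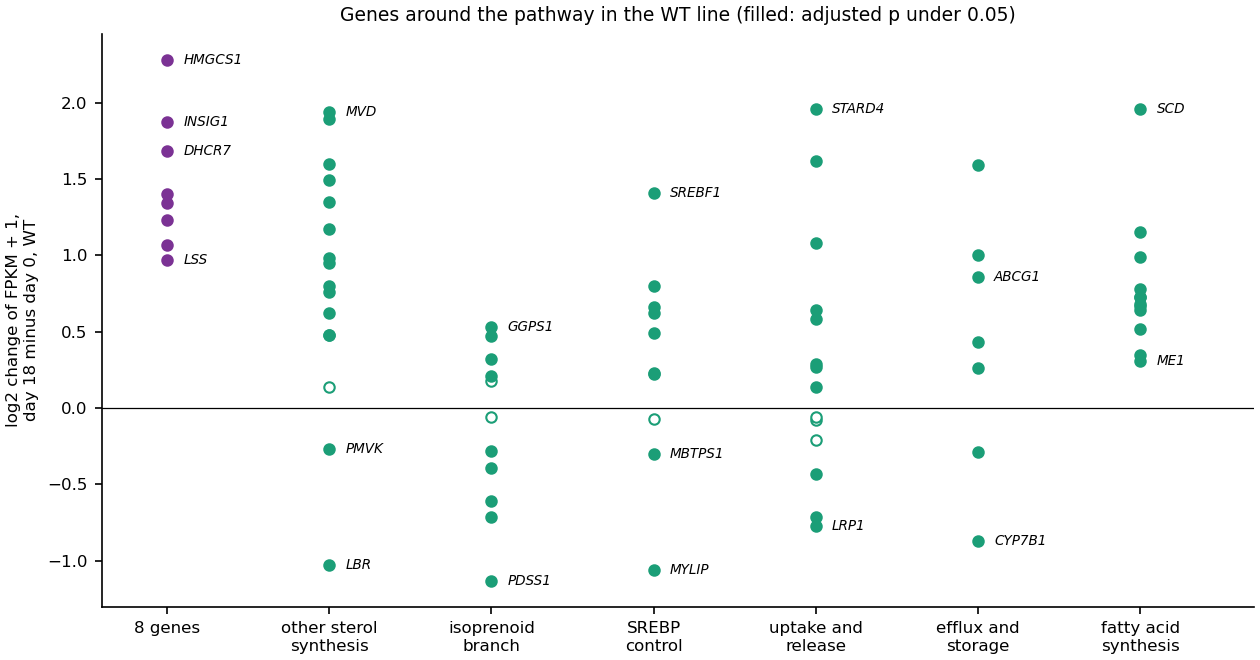
Log2 change from day 0 to day 18 in WT of each tested gene, by pathway list, on the log2(FPKM + 1) scale, with filled points for genes that passed limma's test (adjusted p under 0.05) and open points for those that did not. The 8 cholesterol genes lie between 0.97 and 2.28, the other synthesis genes are mostly positive with LBR at −1.03, and the isoprenoid branch spreads on either side of 0.

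Within a day the 8 genes did not vary as a unit. Pearson's r of each gene with the mean of the 8 standardised genes, over the 9 libraries of a day, ranged from −0.12 (DHCR7) to 0.71 at day 0 and from −0.47 (SQLE) to 0.88 (DHCR7) at day 18, where LSS (0.84) and SREBF2 (0.83) were also high. The tested genes outside the 8 that were most like this mean on both days were TTC9B (r = 0.78 at day 0 and 0.90 at day 18), RNF181 (0.76 and 0.80), PAQR4 (0.76 and 0.85), SCAMP5 (0.75 and 0.91) and PPT2 (0.74 and 0.85). These r describe 9 libraries that share a day and, at day 18, include the library that stood apart. Each of the 8 genes is part of the mean it was compared with, which raises its r. The genes outside the 8 were picked for the highest r among all tested genes, so high values follow from the choice. Between days, TTC9B rose by 1.36 on the log2 scale in WT, while RNF181 differed by 0.13 and did not pass the test (limma adjusted p = 0.43).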

How the data were processed

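RNA-seq libraries numbered 18, with 3 for each of 6 groups of construct and day taken from the sample titles. The authors deposited 1 table of FPKM per gene symbol and library, and 0 value columns lacked a sample. Per the labels' protocols, ribosomal RNA was depleted with Ribo-Zero and libraries were made with NEBNext Ultra. The submitters' processing notes name TopHat2, STAR, Cufflinks 2.2.1 and hg38, with no role or order. The annotation and the use of strand are not given in the sources used here. FPKM remove absolute depth, and a rise of abundant RNAs in a library lowers all its other values.

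Values were transformed to log2(FPKM + 1), a pseudocount of 1, which understates the change of low genes. Of 26372 symbols, 4960 read 0 in every library, and the 13785 whose mean FPKM reached 1 were tested. A single limma fit (version 3.58.1, R 4.3.3, with a variance trend) of the 6 group means used all 18 libraries. P-values were adjusted by Benjamini-Hochberg within each comparison over all tested genes, with a threshold of 0.05. The comparisons were day 18 against day 0 in each construct, each pair of constructs on each day, and the variant by day interactions. The code was tested on simulated data. The 8 genes and the gene lists were chosen with earlier results of these data known. All 8 genes are named; of each list, up to the 6 largest changes in a comparison, and genes given as not passing (some list genes are not reported here); and the 5 tested genes with the highest smaller r of both days. Alternatives are given in the closing section.

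Positions and GC content came from GENCODE 29 on GRCh38, matched by symbol for 23797 symbols (90.2%), and 93.8% of tested genes had a GC content. Promoters came from RefSeq on GRCh38.p14.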

Additional observations from a re-analysis of the deposited data

How the results depend on the processing

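The alternatives were quantile normalization, a pseudocount of 0.1, median-of-ratios scaling, rescaling after small RNA genes were left out, array weights, no variance trend, a replicate block, a minimum mean FPKM of 5 or none, a fit of only the libraries compared, a log2 change of at least 1, and each of the 18 libraries left out; removal of each library's GC trend (lowess, span 0.3), with and without the block, was chosen after seeing the data. Under each of these, 8 of 8 cholesterol genes were called between days in every construct and 0 of 8 between constructs or in an interaction, with the exception that LSS (0.97 in WT and 0.87 in C14R) missed a log2 change of at least 1. Leaving out single libraries gave counts of 8 to 8 and 0 to 0. With rescaling after small RNA genes were left out, the median log2 change of all genes moved to 0.21 in WT, 0.18 in C14R and 0.22 in the deletion, and higher genes among those called in WT went from 52.9% to 68.6%; HMGCS1 then rose by 2.48 and LSS by 1.16 in WT. With a minimum mean FPKM of 5, only 2 of the 7 efflux, storage and oxidation genes were left to test, and both rose. Replicate numbers were tested as a pairing: deviations of same-numbered libraries correlated at −0.36 to 0.17 (6 of 45 pairs over 0.1) and of other numbers at −0.17 to 0.27 (19 of 90). Over all tested genes, same-numbered libraries were thus not more alike than others. A small RNA gene, SNORD3A, did follow the number in part at day 0. In C14R, WT and the deletion it read 960734, 1301250 and 1049030 FPKM in replicate 1 and 74642, 77232 and 68086 in replicate 2. In replicate 3 it read 1212090, 85185 and 222789 FPKM. Whether same-numbered libraries share a preparation was not tested. With the replicate block, 8 of 8 genes were called between days and 0 of 8 between constructs. Absolute depth is unknown, and 3 libraries a group left differences of LSS of up to 28.6% within the interval.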
